A study of Mus musculus with 32 samples.

Results

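The somite mesoderm of mouse embryos at E10.5 and E11.5 was examined as the single cells that were picked from somites on these days and that the study placed in its mesoderm-derived major group. There were 61 such cells at E10.5 and 60 at E11.5, among 1916 cells in the series and 875 mesoderm-derived cells. At E10.5, 31 cells came from embryo 1 and 30 from embryo 2. At E11.5, 29 cells came from embryo 1 and 31 from embryo 2. In embryo 2 of each day, 1 cell had the same values as another cell of that embryo in every gene, so there were 60 and 59 distinct profiles. Of the compared organs, heart held 2 such copies and lung 1. Copies were kept as deposited, and the counts of called genes with each profile counted once, an alternative added after the data were seen, stand beside the comparisons. The embryos were C57BL/6J mice, all labelled male, with no treatment stated, and the stage was the only stated difference between the groups. In all, 128 somite cells were picked on these days. Of the 7 that are not members, 2 had been placed in the hematopoietic group and 5 were without a group. The compared mesoderm-derived cells of the same days and embryos were 148 from heart, 73 from lung, 55 from intestine and 47 from skin.

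Somites are paired blocks of mesoderm beside the neural tube, formed in sequence from head to tail. Their ventral part becomes the sclerotome, the source of vertebrae and ribs, which is marked by the transcription factors *Pax1* and *Pax9*. Their dorsal part stays epithelial as the dermomyotome, marked by *Pax3*, and gives rise to the dermis of the back and to the myotome, where *Myf5*, *Myod1* and *Myog* switch on the genes of skeletal muscle. Which *Hox* genes a somite expresses depends on its place along the body axis: genes with high numbers are used toward the tail.

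The median number of unique molecular identifiers (UMIs, 1 for each captured transcript) per cell was 189941 and 372011 in E10.5 embryos 1 and 2, and 141594 and 317722 in E11.5 embryos 1 and 2, with single cells between 22267 and 1039897. Embryo 2 was therefore the deeper embryo on both days. All somite cells of a day shared 1 library, so day and library cannot be told apart. The labelled sex did not hold for E10.5 embryo 2: its somite cells had *Xist*, the RNA of the inactive X chromosome, at a mean level of 2.97 and the Y-linked gene *Ddx3y* at 0.13, against 0.22 and 1.86 in E10.5 embryo 1. Heart, lung, skin and intestine cells of E10.5 embryo 2 also had high *Xist*, whereas in liver the cells named embryo 1 did. Intestine cells of E10.5 embryo 1 held both genes, with *Xist* at 1.54 and *Ddx3y* at 1.13. Levels are log2(TPM/10 + 1) throughout, where TPM is a gene's UMI count scaled to a total of 1000000 in each cell. A gene was counted as expressed in a cell at a level of 1 or more, which is 10 TPM. Embryo values are means over cells, and the replicate is the embryo, with n = 2 per day.

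The E10.5 somite library also had 2 hematopoietic cells, both from embryo 2, which held transcripts of somite genes. They held *Myog* at 1.86 and 2.07, *Actc1* at 2.39 and 2.80, *Myf5* at 0.85 and 1.38, *Meox1* at 1.15 and 1.5, *Pax1* at 0.75 and 1.01, and *Pax3* at 0.27 and 0.30. None of 165 hematopoietic cells from liver, 163 of them distinct, with a median of 439942 UMIs, expressed any of these 6 genes, which allows a share of up to 2.21% by the 95% exact Clopper-Pearson interval. The source of the transcripts in the 2 cells was not tested, and the E11.5 somite library held no hematopoietic cell to compare. For *Pax1*, 4, 2, 3 and 7 cells of the 4 embryos (E10.5 embryos 1 and 2, then E11.5 embryos 1 and 2, the order used below) lay between 0.5 and 1.5.

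The identity of the cells was checked against genes of the early somite. *Meox1*, a homeobox factor of all somite compartments, was expressed in 96.8%, 96.7%, 89.7% and 100% of the cells of the 4 embryos. *Tcf15*, a bHLH factor needed for epithelial somites, was expressed in 74.2%, 70.0%, 86.2% and 90.3%. In all, 61 of 61 cells at E10.5 and 58 of 60 at E11.5 expressed *Meox1* or *Tcf15*. The 2 hematopoietic cells would have passed this mark too, since they held *Meox1* at 1.15 and 1.5. Above the higher of these levels, *Meox1* was found in 30 of 31, 29 of 30, 25 of 29 and 31 of 31 somite cells. Genes of the presomitic mesoderm and of segmentation were close to absent, with summed levels of the 13 genes between 12.2 and 28.1 TPM and no gene reaching a mean level of 1. *Nkx3-2*, a later sclerotome factor, and *Lbx1*, a factor of migrating limb muscle precursors, had no cell expressing them in any embryo, which allows a share of up to 11.2% to 11.9% per embryo by the 95% exact Clopper-Pearson interval. These intervals cover counting error only.

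*Pax1* was expressed in 5 of 31 cells (16.1%, 95% exact interval 5.45% to 33.7%) and 7 of 30 cells (23.3%, 9.93% to 42.3%) at E10.5. At E11.5 it was expressed in 18 of 29 (62.1%, 42.3% to 79.3%) and 23 of 31 cells (74.2%, 55.4% to 88.1%). The shares of the days did not overlap. With each profile counted once, embryo 2 had 24.1% at E10.5 and 73.3% at E11.5. With 2 embryos against 2, no exact permutation test can pass 0.05, so the shares carry no test. *Pax9* was rarer: 1, 6, 5 and 13 cells expressed it, or 3.23%, 20%, 17.2% and 41.9%. The days overlapped for *Pax9*. Of the 25 cells expressing *Pax9*, 18 also expressed *Pax1*.

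*Pax3* was expressed in 11, 18, 7 and 25 cells, or 35.5%, 60.0%, 24.1% and 80.6%. On both days the share was higher in embryo 2, which was also the deeper embryo. The order of the embryos was therefore not an order of the days. Cells with *Pax1* and no *Pax3* numbered 3, 3, 14 and 6, and cells with *Pax3* and no *Pax1* numbered 9, 14, 3 and 8. Both genes were expressed in 2, 4, 4 and 17 cells, of which the 17 made up 54.8% of E11.5 embryo 2. Neither gene was expressed in 17, 9, 8 and 0 cells. *Pax7*, a dermomyotome factor of later muscle progenitors, was expressed in 3, 3, 1 and 4 cells.

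*Myog*, the factor of differentiating myoblasts, was at 1 or more in 83.9%, 73.3%, 79.3% and 100% of cells. It was above 2.07, the higher of the levels in the 2 hematopoietic cells, in 14 of 31, 10 of 30, 9 of 29 and 30 of 31 cells. In E11.5 embryo 2 the lowest cell stood at 1.68. At a level of 4 or more, *Myog* was found in 6 of 31, 5 of 30, 4 of 29 and 14 of 31 cells, or 19.4%, 16.7%, 13.8% and 45.2%. *Myod1*, a factor that commits cells to muscle, was expressed in 7, 4, 3 and 8 cells, or 22.6%, 13.3%, 10.3% and 25.8%, and *Myf5*, the earliest of these factors in the mouse somite, in 45.2%, 56.7%, 37.9% and 77.4%. The 2 hematopoietic cells held *Myf5* at 0.85 and 1.38, so the higher of them would count as expressing it. Of the 22 *Myod1* cells, 13 expressed *Pax3* and 4 expressed *Pax1*. All 4 *Pax1* cells came from E11.5 embryo 2. *Scx*, a factor of tendon progenitors, was expressed in 6, 2, 7 and 2 cells.

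**Figure D1:**
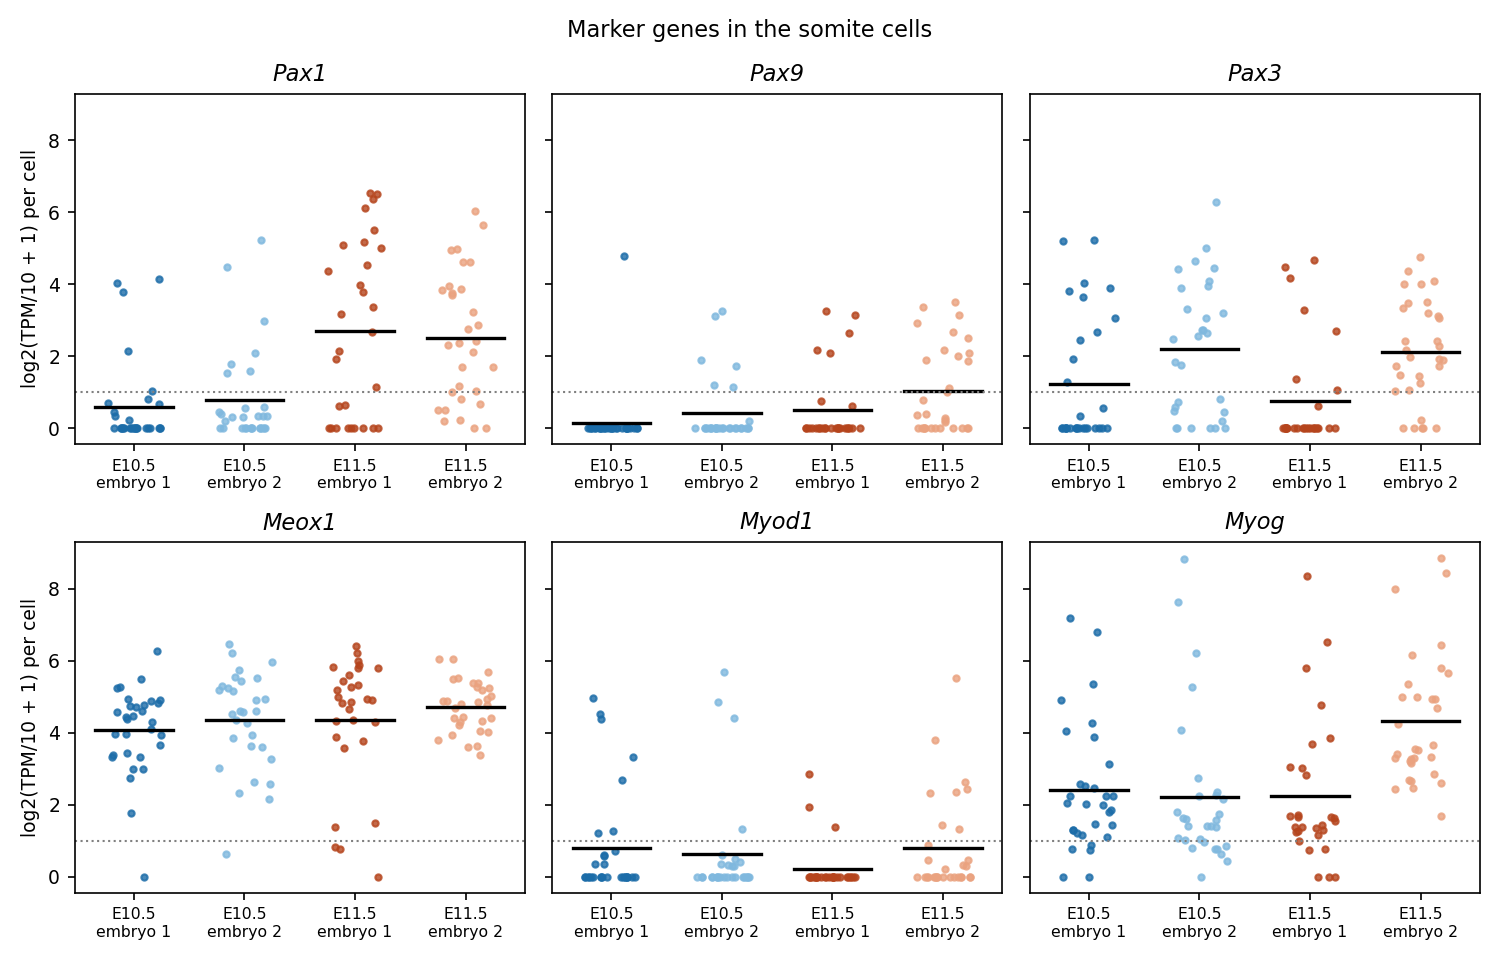
Levels of marker genes in each somite cell, on the log2(TPM/10 + 1) scale, by embryo. Each point is 1 cell, the bar is the mean and the dotted line marks the level of 1 that counts as expressed. *Pax1* is expressed in 16.1% and 23.3% of cells of the E10.5 embryos and in 62.1% and 74.2% of cells of the E11.5 embryos, while *Pax3* is highest in share in E11.5 embryo 2, at 80.6%.

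The somite was next compared with the equally weighted mean of heart, intestine, lung and skin mesoderm, in 1 limma fit over 20 embryo means of the 5 organs and 2 days. Of 14727 genes tested, 241 were called (1.64%) at an adjusted p under 0.05 and a log2 difference of at least 1, 141 higher in the somite (0.957%) and 100 lower (0.679%). In counts of list genes below, rose and fell mean called higher and called lower. With each profile counted once 242 were called, of which 240 were among the 241. Leaving out E10.5 embryo 1 left 108 calls and leaving out E10.5 embryo 2 left 114.

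*Meox1* stood at 4.08, 4.34, 4.36 and 4.73 in the 4 embryos, and no embryo mean of another organ exceeded 1.24. The difference was 4.18 (SE 0.19, limma, adjusted p = 5.41e-10), the largest of the called genes. *Tcf15* was at 2.17, 2.15, 2.83 and 2.73 against at most 0.34 elsewhere (difference 2.41, SE 0.10, adjusted p = 2.2e-10). Many of its means elsewhere were 0, so the SE and p of *Tcf15* rest largely on means at or near 0. For *Pax1* not a single UMI was found among 86712336 UMIs of the other 4 organs, against 2205 UMIs in the somite, so it was at least 1860-fold higher when the floor is set at 3 UMIs over the compared cells. *Myod1* and *Tmem8c*, the fusion factor myomaker, were likewise without a UMI there, with bounds of at least 817-fold and at least 1370-fold.

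**Figure D2:**
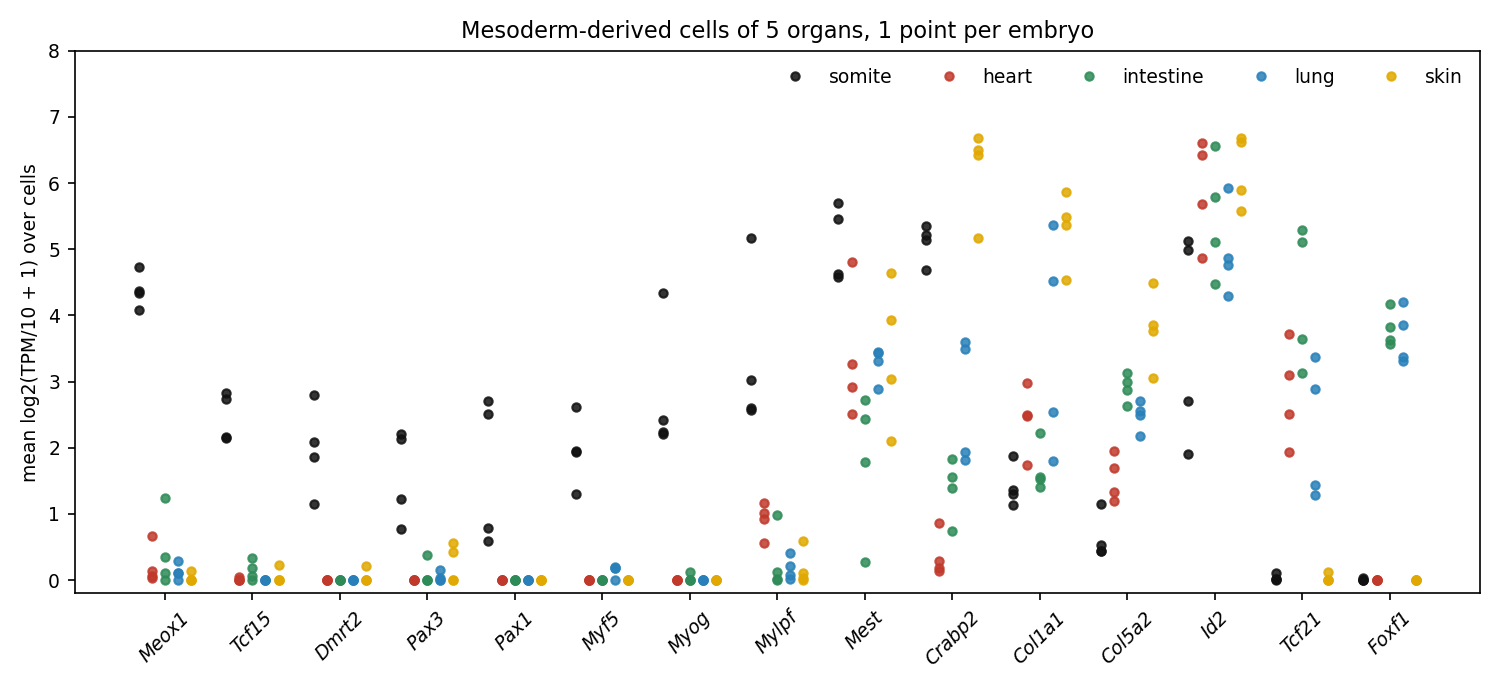
Embryo means of genes that differed between somite and other mesoderm, on the log2(TPM/10 + 1) scale; each point is 1 embryo of 1 organ. *Meox1* lies between 4.08 and 4.73 in the somite and at 1.24 or below elsewhere, whereas *Crabp2* is higher in skin, with a mean of 6.19, than in the somite, with 5.10.

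Of 10 sclerotome genes tested, 5 rose in the somite against the other organs (*Pax1*, *Uncx*, *Meox1*, *Meox2* and *Foxc1*), with a median difference of 0.95 against 0.03 over all genes. *Uncx*, a homeobox factor of the caudal part of each somite, differed by 1.17 (SE 0.05, limma, adjusted p = 6.1e-10). Of 14 dermomyotome genes, 5 rose, among them *Pax3* (1.49), *Dmrt2* (1.96), *Gas1* (1.61) and *Tcf15*. *Dmrt2*, a factor of dermomyotome architecture, was at 2.08, 1.86, 1.15 and 2.79 and had no embryo mean over 0.21 elsewhere. *Pax3* did not overlap with other organs either, with 1.23, 2.22, 0.77 and 2.13 against at most 0.56.

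Muscle genes were among the higher ones. Of 16 muscle regulators 7 rose, among them *Myog* (2.79), *Myf5* (1.92), *Myf6* (1.06) and the cadherin *Cdh15* (1.91). Of 21 contractile genes 8 rose, among them the fast light chain *Mylpf* (2.95), the slow troponin *Tnnt1* (2.60), the fast troponin *Tnnc2* (2.12) and the giant sarcomere protein *Ttn* (1.97). *Actc1*, cardiac α-actin, was higher in the somite than in the mean of the other organs (1.82), yet heart itself had 8.01 against a somite mean of 4.07. *Myl7*, the atrial light chain, was at 0.57, 0.77, 0.03 and 0.22 in the somite and at 8.58 in heart (difference −1.96). Without heart, the *Myl7* difference was 0.12.

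Of 8 intermediate and lateral mesoderm genes 4 fell, namely *Tcf21* (−2.31), *Foxf1* (−1.86), *Hand1* (−1.06) and *Foxf2* (−1.03), factors of visceral and cardiac mesenchyme. *Foxf1* stood at 3.80 in intestine and 3.68 in lung and at no more than 0.03 in a somite embryo. *Tbx5*, a factor of heart, lung and forelimb, had no UMI in the somite embryo means and stood at 3.79 in lung. *Aldh1a2*, the main enzyme of retinoic acid synthesis in the embryo, was lower by 1.71, with intestine at 5.42. *Crabp2*, a carrier of retinoic acid, was higher by 2.43 against the mean of the other organs but below skin, which had 6.19 against 5.10 in the somite. Of 29 collagen and matrix genes 10 fell and 1 (*Pcolce*) rose, with *Col1a1* at −1.82 (SE 0.23), *Col5a2* at −2.04 and *Lum* at −1.16. *Col2a1*, the collagen of cartilage, rose by 1.70, with a skin mean of 3.79 against 3.12 in the somite. The cartilage genes as a list did not rise: of 12 tested, 2 had positive and 10 negative differences. Their median was −0.17 against 0.03 over all genes, and *Hapln1* was called lower.

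Few genes of the cell cycle were called. Of 54 G2/M genes all 54 had positive differences, with a median of 0.56 against 0.03 over all genes, but only *Top2a* (1.26) and *Kif11* were called. Of 43 G1/S genes 42 were positive, and *Rrm2* (1.21) and *Clspn* were called. Among signalling genes, *Dusp6*, a feedback phosphatase of the FGF pathway, rose by 1.94 and was the only FGF gene called higher of 17. The receptor *Fgfr2* fell by 1.19. Of the 17, 14 had positive and 3 negative differences, with a median of 0.47 against 0.03 over all genes. The Notch-related gene *Hes6* rose by 1.49, and *Bambi*, an inhibitor of the BMP and TGF-β pathway, fell by 1.92. Of the 141 higher genes, 48 had every somite embryo mean above every embryo mean of the other organs, and of the 100 lower genes 7 had every somite mean below. Over all tested genes these shares were 0.822% and 0.102%.

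The change from E10.5 to E11.5 within the somite gave fewer called genes than the comparison with the other organs. The change between the days rests on fewer embryo means, so the counts of calls cannot show which differences were larger. Of 14727 genes, 25 were called (0.17%), 16 higher at E11.5 (0.109%) and 9 lower (0.0611%), and 866 had an unadjusted p under 0.05 (5.88%). With each profile counted once the same 25 genes were called. A limma fit on the somite means alone called 30, of which 18 were among the 25. The number moved most with E11.5 embryo 1: without it 88 were called, of which 23 were among the 25. edgeR over the 5 organs called 5 genes, of which 1 was shared, whereas edgeR on the somite profiles alone, added after the data were seen, called 109, of which 19 were shared.

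By number, *Hox* genes were the largest of the listed groups among the called genes, 10 of 25. At E10.5 the highest paralogue group expressed was group 9 in 50 of 61 cells and group 10 in 11 of 61. At E11.5 it was group 13 in 54 of 60 cells, group 12 in 2, group 11 in 3 and group 10 in 1. Any *Hox* gene of groups 11 to 13 was expressed in 0 of 61 E10.5 cells, which allows a share of up to 5.87%, and in 59 of 60 E11.5 cells. The 2 hematopoietic cells of the E10.5 library held *Hoxc9* at 1.10 and 3.15, and none of the 165 liver cells expressed it. *Hoxc9* was above 3.15 in 48 of 61 E10.5 cells and in 9 of 60 E11.5 cells. The days met only in group 10, with 11 E10.5 cells and 1 E11.5 cell.

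*Hoxc9* stood at 4.25 and 4.59 at E10.5 and at 0.96 and 1.74 at E11.5, a difference of −3.07 (SE 0.33, limma, adjusted p = 6.25e-05). *Hoxa7* was at 2.31 and 2.35 against 0.49 and 0.58 (−1.80, adjusted p = 0.000107). *Hoxa10* was at 0.09 and 0.02 against 2.48 and 2.66 (2.51, SE 0.09, adjusted p = 8.06e-11) and *Hoxc10* at 0.61 and 0.42 against 2.10 and 2.30 (1.69, adjusted p = 4.88e-08). *Hoxa9* moved the other way from *Hoxc9*, at 1.23 and 0.77 against 2.25 and 2.39 (1.32), although both belong to group 9. The days did not overlap for any of these 5 genes, which is no separate result, since the genes were called on these same means.

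*Hoxd11*, *Hoxd12*, *Hoxd13* and *Hoxc13* had no UMI in any E10.5 cell. Their E11.5 means were 1.92 and 2.33 for *Hoxd11*, 1.37 and 1.16 for *Hoxd12*, 1.38 and 1.72 for *Hoxd13*, and 1.56 and 3.09 for *Hoxc13*. Against a floor of 3 UMIs over the 18387188 UMIs of E10.5, *Hoxd11* was at least 285-fold higher and *Hoxc13* at least 480-fold higher. In E11.5 embryo 2 all 31 cells expressed *Hoxc13*, and in E11.5 embryo 1 17 of 29 did. The long non-coding RNAs *Hoxa11os* (2.46 and 2.28) and *Hotair* (1.37 and 1.02), which lie antisense to *Hox* genes, were at 0 at E10.5 as well. Whether the counting used the strand is not given in the sources used here, so their UMIs and those of the genes they overlap cannot be told apart. Of 37 *Hox* genes tested, 8 rose and 2 fell. The axial level of the dissected somites is not given in the labels, so axial level and day cannot be told apart.

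**Figure D3:**
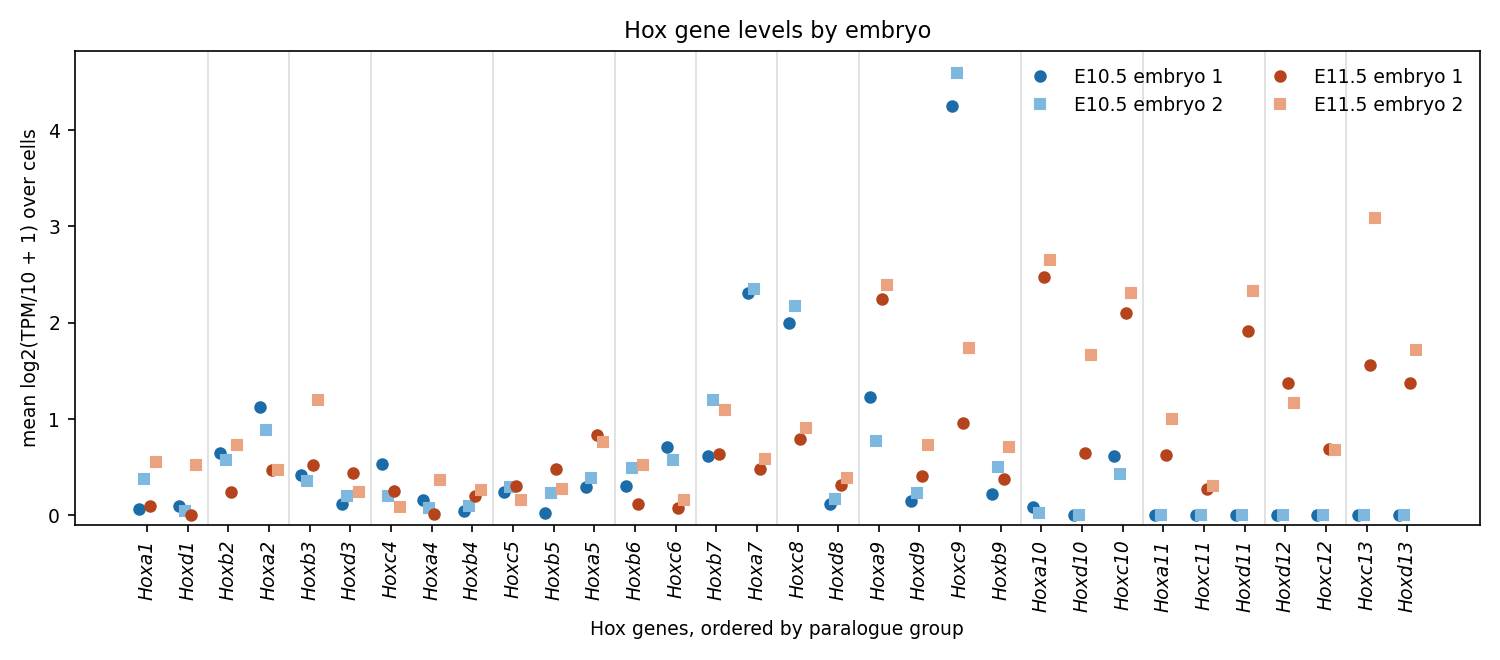
Mean levels of *Hox* genes in the 4 embryos, on the log2(TPM/10 + 1) scale, ordered by paralogue group. *Hoxc9* is at 4.25 and 4.59 in the E10.5 embryos, and *Hoxd11*, *Hoxd12*, *Hoxd13* and *Hoxc13* are at 0 there and above 1 in both E11.5 embryos.

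Of the sclerotome genes, 3 rose at E11.5. *Pax1* was at 0.59 and 0.79 at E10.5 and at 2.71 and 2.50 at E11.5 (difference 1.92, SE 0.12, limma, adjusted p = 4.88e-08). *Uncx* was at 0.46 and 0.61 against 1.67 and 1.94 (1.27, SE 0.10, adjusted p = 8.31e-07), and *Foxc2*, a forkhead factor of the paraxial mesoderm, at 0.29 and 0.35 against 1.17 and 1.79 (1.16, SE 0.18, adjusted p = 0.00366). The values of both days did not overlap for these 3 genes. They were called on these same means, so the lack of overlap is no separate result. The other 4 organs held 0 UMIs of *Pax1* and 1 of *Uncx*, so the SE and p of these 2 genes rest largely on means at or near 0. All 10 tested genes of the list had positive differences, with a median of 0.99 against 0.00 over all genes, and *Pax1*, *Uncx* and *Foxc2* were called. Over the embryos left out in turn, 2 to 4 were called, 2 of them without either E10.5 embryo. The *Foxc2* call was lost without either E10.5 embryo and without E11.5 embryo 2. edgeR over the 5 organs called none of the 10, and edgeR on the somite alone called 2, which were neither *Pax1* nor *Uncx*.

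Not called but near were *Foxc1* (1.98, limma, adjusted p = 0.077), *Meox2* (1.22, adjusted p = 0.105) and *Pax9* (0.49, adjusted p = 0.117). *Col2a1*, which cartilage progenitors begin to make in the sclerotome, was at 2.19 and 2.30 against 4.19 and 3.83 (1.77, SE 0.33, adjusted p = 0.0301), a call lost when either E10.5 embryo was left out. *Sox9*, its activator, was at 1.39, 2.26, 2.42 and 2.86 and was not called (0.82, adjusted p = 0.731). *Pcp4*, a calmodulin regulator, was at 0.30, 0.83, 1.78 and 3.56 (2.10, adjusted p = 0.0307), a call lost without either E10.5 embryo and without E11.5 embryo 2. Among cells that expressed *Pax1* or *Pax9*, which numbered 5, 9, 18 and 28, 1 of the 10 sclerotome genes was called.

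No muscle gene was called between the days. Of 16 muscle regulators and 21 contractile genes 0 were called, while 13 and 16 of them had positive differences, with medians of 0.20 and 0.81. The contractile genes stood apart in 1 embryo: their summed level was 2588, 3234, 2905 and 7411 TPM, highest in E11.5 embryo 2. *Mylpf* was at 2.58, 2.60, 3.02 and 5.17, and *Actc1* at 3.33, 3.41, 3.64 and 5.90. *Myog* was at 2.42, 2.20, 2.24 and 4.34. In each of these the values of E11.5 embryo 1 were near those of E10.5. Without E11.5 embryo 1, 11 of 21 contractile genes were called, and without E11.5 embryo 2 none were and the median was −0.08.

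Among the genes that were lower at E11.5, *Hbb-y*, *Hbb-bh1* and *Hba-x* code for embryonic globins. *Hbb-y* was at 6.00 and 5.80 at E10.5 and at 0.11 and 0.54 at E11.5 (−5.58, SE 0.37, limma, adjusted p = 1.47e-07). Every E10.5 cell expressed it, at 4.77 to 6.94, whereas 1 of 29 and 5 of 31 cells did so at E11.5. The summed level of the 10 blood genes was 1381 and 1179 TPM at E10.5 and 1.67 and 43.3 TPM at E11.5. The 2 hematopoietic cells of the E10.5 library held *Hbb-y* at 6.33 and 11.6, and no cell of the E11.5 somite library had been placed in the hematopoietic group. In heart, lung and skin *Hbb-y* changed by 0.95, 1.11 and 1.28, and in intestine by −1.21. Their part in the other day differences was not tested.

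*Id2*, an inhibitor of bHLH factors and a target of BMP signalling, was at 5.12 and 5.0 against 1.91 and 2.70 (−2.76, SE 0.38, limma, adjusted p = 0.00116). *Dlk1*, an imprinted Notch-family membrane protein made in developing muscle and stroma, was at 3.38 and 2.75 against 0.45 and 1.35 (−2.17, adjusted p = 0.0296). *C1qtnf3*, a secreted factor of the C1q family, was at 3.62 and 3.41 against 1.40 and 1.77 (−1.93, adjusted p = 5.08e-05). *Emx2*, a homeobox factor, was at 2.26 and 0.72 at E10.5 and had no UMI at E11.5, so it was at least 341-fold lower with the floor set over the E11.5 cells. *Osr1*, a factor of intermediate mesoderm, had a like pattern, at 2.40 and 0.59 and then no UMI, and was not called (adjusted p = 0.588). The *Id2* call did not hold when either E10.5 embryo was left out, and that of *Dlk1* did not hold without any 1 of the 4.

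The 18 immediate early and stress genes all had negative differences, with a median of −1.51, and 0 were called. *Fos* was at 3.0 and 7.13 at E10.5 and at 0.68 and 0.67 at E11.5, so the E10.5 embryos differed from each other by more than E10.5 embryo 1 did from E11.5. The summed level of these genes was 1286, 5616, 489 and 447 TPM. Their part in the day differences was not tested. Markers of intermediate and lateral mesoderm summed to 168 TPM in E10.5 embryo 1 and to 19.7, 2.29 and 9.70 TPM in the others. Markers of endothelium, epithelium, neural crest and neural tube stayed at or under 79.6 TPM in sum in every embryo, and those of the notochord and floor plate at or under 0.551 TPM.

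**Figure D4:**
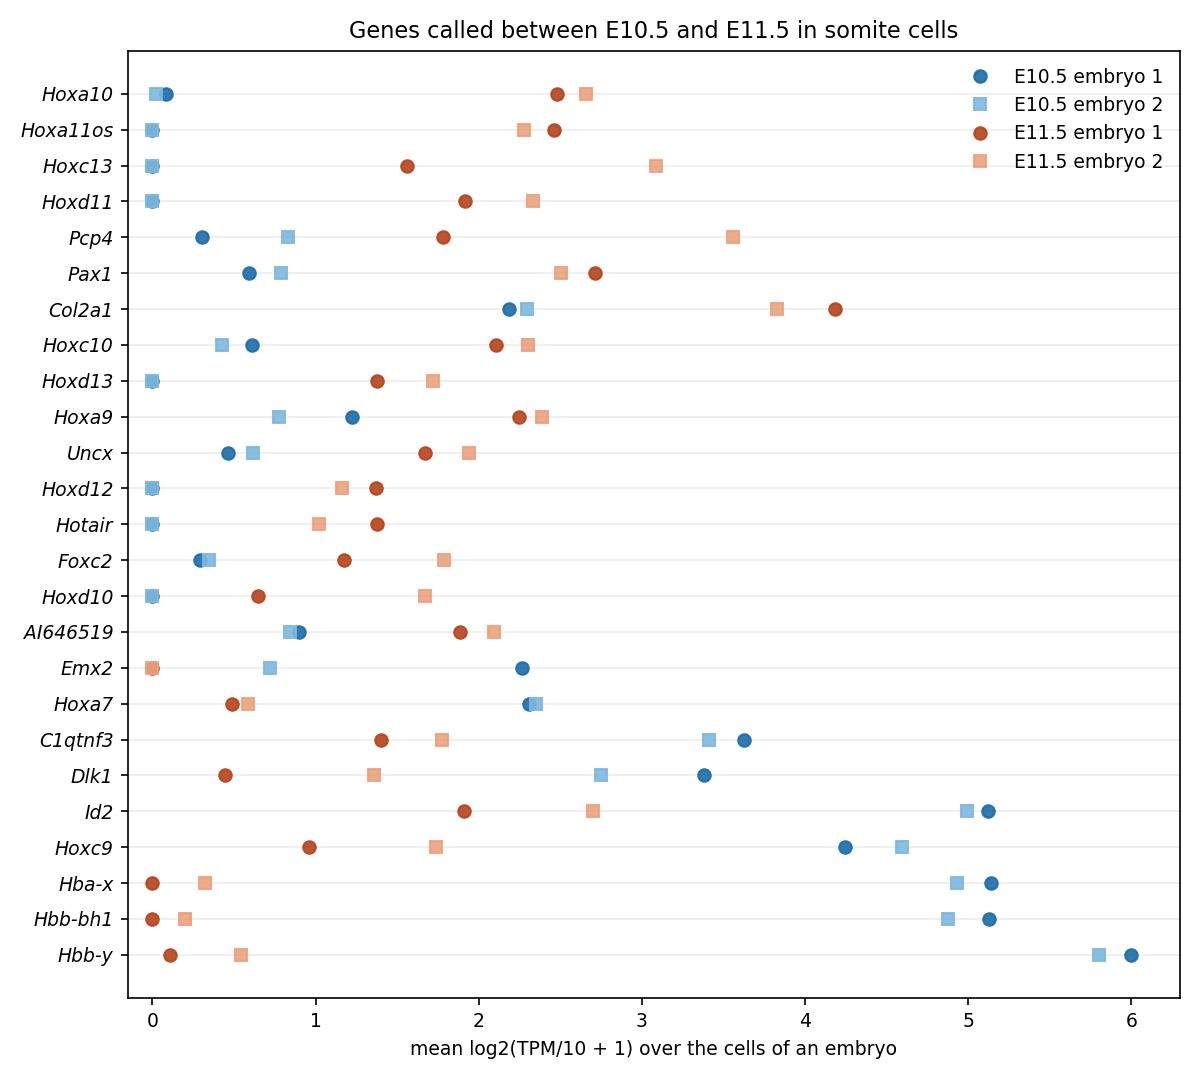
Embryo means of genes that differed between E10.5 and E11.5, on the log2(TPM/10 + 1) scale; each point is 1 embryo. *Pax1* moves from 0.59 and 0.79 to 2.71 and 2.50, and *Hbb-y* from 6.00 and 5.80 to 0.11 and 0.54.

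The change between the days was then compared with the mean change of the other 4 organs over the same days. Of 14727 genes, 21 differed in their change (0.143%), 15 higher (0.102%) and 6 lower (0.0407%). *Pax1* (1.92, limma, adjusted p = 2.26e-07), *Uncx* (1.27) and *Foxc2* (1.31) were among them, as were 10 *Hox* genes. The other 4 organs had no change in *Pax1*, which had no UMI there, and changes of −0.32 to 0.00 in *Foxc2*. *Hoxd13* had no UMI there either. For such genes the difference equals the somite change, so this comparison repeats the one between the days and is no separate result. *Eya1*, a transcriptional cofactor, was called in this comparison, with a change of 1.07 in the somite (0.51 and 0.55 against 1.20 and 2.0) and of −0.96 in skin. At an unadjusted p under 0.05 there were 1128 (7.66%). Leaving out E10.5 embryo 1 left 11 calls and leaving out E11.5 embryo 1 gave 79. With each profile counted once the same 21 were called. edgeR on summed UMIs called 1 gene, which was not among the 21, and 681 at an unadjusted p under 0.05.

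Within the embryos, cells with *Pax1* and no *Pax3* (26) were compared with cells with *Pax3* and no *Pax1* (34), a comparison added after the data were seen, with the embryo as a term. The classes were drawn from these genes in the same cells, so *Pax1* and *Pax3* were left out of the test. Their median UMIs per cell were 186931 and 335951, so the *Pax3* cells were the deeper ones. Of 11152 genes, 35 were called (0.314%), 10 higher in the *Pax1* cells (0.0897%) and 25 higher in the *Pax3* cells (0.224%), and 30 of the 35 had the same sign in 4 of 4 embryos. The calls were made on these same embryos and favour genes of 1 sign, so this count is no separate support. The 10 included 2 of 9 cartilage genes tested and 2 of 8 sclerotome genes. The 25 included 4 of 19 contractile genes, 2 of 16 muscle regulators and 3 of 12 dermomyotome genes. With each profile counted once 34 of the 35 were called and no others. Without E10.5 embryo 2, 3 genes were called, without E11.5 embryo 1, 8 were, without E11.5 embryo 2, 14 were, and without the embryo term 1 was. At an unadjusted p under 0.05 there were 772 (6.92%).

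On the side of the *Pax1* cells, *Sox9*, the activator of cartilage genes, was at 1.82, 5.61, 2.87 and 3.72 in them against 1.85, 1.17, 0.00 and 1.6 in the *Pax3* cells of the same embryos (2.35, SE 0.44, limma, adjusted p = 0.00031). It was higher in 3 of 4 embryos, and the call was lost without E10.5 embryo 2 and without either E11.5 embryo. *Meox2* was higher by 1.66 (adjusted p = 0.0361) and *Col9a1*, a cartilage collagen, by 1.75 (adjusted p = 0.0449, 3 of 4 embryos), a call lost with each profile counted once. *Nrp1*, a receptor for semaphorins and VEGF, was higher by 1.98 in 4 of 4 embryos, and *Ccnd2*, a D-type cyclin, by 1.34. All 8 tested sclerotome genes had positive differences, and 2 were called. *Uncx* (0.83) and *Pax9* (0.66) were not.

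On the side of the *Pax3* cells, *Myf5* was at 3.03, 2.74, 3.11 and 3.34 against 0.59, 0.06, 0.68 and 1.96 in the *Pax1* cells (−2.23, SE 0.43, limma, adjusted p = 0.000584), a call lost without E10.5 embryo 2 and without E11.5 embryo 1. *Dmrt2* (−1.90), *Gas1* (−1.66) and *C1qtnf3* (−2.40) were higher in *Pax3* cells in 4 of 4 embryos. Contractile genes were higher there too: *Actc1* (−1.71), *Tpm2* (−1.77), *Tnnt1* (−1.68) and *Tpm1* were called of 19 tested, and all 19 had negative differences. Of 16 muscle regulators all 16 had negative differences, of which 2 were called, *Myf5* among them. *Myod1* was expressed in 10 of the 34 *Pax3* cells and in 1 of the 26 *Pax1* cells. The part of these *Myod1* cells in the differences of muscle genes was not tested. *Cdkn1c*, a cell cycle inhibitor, was higher in the *Pax3* cells in 4 of 4 embryos (−1.66). None of 32 *Hox* genes tested was called, and their median difference was −0.05, against −0.05 over all genes.

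The 22 cells expressing *Myod1* were compared in the same manner with the other 99 cells, also after the data were seen, with *Myod1* left out of the test. Their median UMIs were 398250 against 200531. Of 12234 genes, 53 were called (0.433%), 46 higher in the *Myod1* cells (0.376%) and 7 lower (0.0572%), and all 53 had the same sign in 4 of 4 embryos. Here too the signs come from the embryos that gave the calls and are no separate support. The 46 included 10 contractile genes and 5 muscle regulators, and the 7 included 3 of 54 G2/M genes. With each profile counted once 55 were called, among them all 53. Without E11.5 embryo 2, 7 were called, without E10.5 embryo 2, 12 were, and without E11.5 embryo 1, 35 were. At an unadjusted p under 0.05 there were 1219 (9.96%).

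*Myog* was at 4.31, 5.82, 4.96 and 6.10 in the *Myod1* cells against 1.87, 1.65, 1.92 and 3.73 in the others (3.01, SE 0.28, limma, adjusted p = 8.22e-05). Of 15 muscle regulators 5 rose: *Myog*, *Myf6* (2.03), *Mef2c* (1.79), *Cdh15* (1.85) and *Tmem8c* (1.91), which lets myoblasts fuse. *Myf5* was higher by 1.37 and was not called (adjusted p = 0.0874). *Pax3* differed by −0.31 (adjusted p = 0.793) and *Pax1* by −1.23 (adjusted p = 0.204), neither called. Of 20 contractile genes all 20 had positive differences, with a median of 1.58 against 0.00 over all genes, and 10 were called.

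*Actc1* was at 5.04, 6.87, 6.06 and 7.88 in the *Myod1* cells against 2.83, 2.87, 3.36 and 5.21 (2.90, SE 0.24, limma, adjusted p = 2.55e-05). *Des*, the intermediate filament of muscle, was at 3.34, 5.17, 3.98 and 3.94 against 1.38, 1.55, 0.79 and 2.28 (2.61), *Tnnt1* at 5.18, 6.24, 5.04 and 5.58 against 3.07, 2.77, 2.48 and 3.72 (2.50). *Tnni1*, the slow troponin I, was higher by 2.43, and *Ttn* and *Mylpf* by 2.22 and 2.03. The calls of *Myog*, *Tnnt1*, *Des*, *Tpm1* and *Car3*, a carbonic anhydrase of muscle, held under all alternatives tried. Those of *Actc1* held in all but the fit without the embryo term.

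Of the cell cycle genes few were called. *Cdkn1a*, a cell cycle inhibitor induced in muscle differentiation, was at 1.81, 6.22, 4.81 and 5.50 against 1.09, 1.34, 0.95 and 3.16 (2.95, SE 0.46, limma, adjusted p = 0.006), and *Cdkn1c* was higher by 1.84 and the growth arrest gene *Gadd45g* by 2.38. *Mki67* was at 1.86, 2.88, 2.04 and 3.81 against 3.78, 3.64, 3.89 and 4.81 (−1.38, adjusted p = 0.0279). *Birc5* (−1.19) and *Cdca3* (−1.20), 2 other G2/M genes, were also lower. Of 54 G2/M genes 48 had negative differences, with a median of −0.74, while 43 G1/S genes had 0 calls and a median of −0.11. *Cdh11* (−2.07) and *Hmga2* (−1.25), genes of mesenchyme and of growing progenitors, were lower as well.

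**Figure D5:**
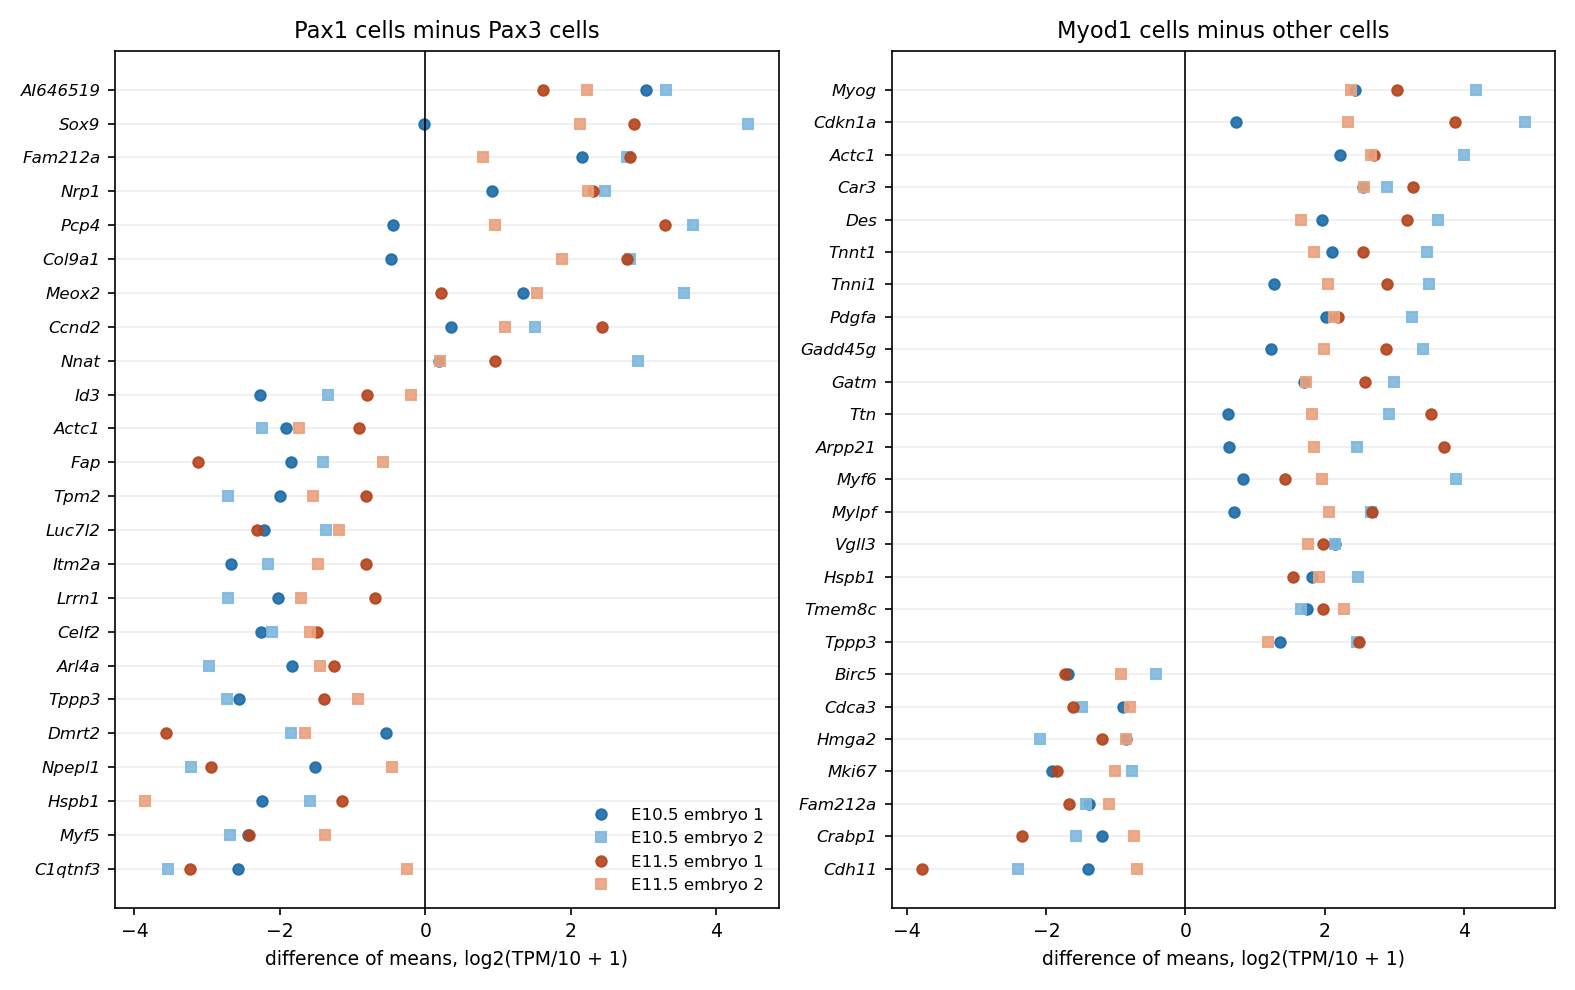
Differences between cell classes within each embryo, on the log2(TPM/10 + 1) scale; each point is 1 embryo and the vertical line marks no difference. *Myf5* and *Actc1* are lower in the *Pax1* cells than in the *Pax3* cells, and *Myog* and *Actc1* are higher in the *Myod1* cells in 4 of 4 embryos.

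The promoters of genes that were higher in the *Myod1* cells were searched for CAGCTG, a form of the E-box that muscle bHLH factors bind, which reads the same on both strands. The window was the 250 bases before and 50 bases after the start from RefSeq, build GRCm38.p6. The letters were in the promoter of 15 of 38 matched genes out of the 46 (39.5%), against 18.3% of all 27025 genes and 17.9% of the 9315 matched genes that were tested. They were in 8 of 19 matched contractile genes (42.1%). A further form, CAGGTG on the strand of the gene, was in 12 of the 38 (31.6%) against 11.6% of the genes tested, and its reverse complement CACCTG in 5 (13.2%) against 9.6%. A match is a description of the letters and no proof of a site. *Tnni1* has more than 1 window, of which 1 is shown. Shown are 5 muscle genes called higher in the *Myod1* cells, with CAGCTG in capitals, in the order *Des* (chr1:75360042-75360341, + strand, match starting at −36), *Tnni1* (chr1:135799171-135799470, + strand, −68) and *Mylpf* (chr7:127211358-127211657, + strand, −51), which hold it, and *Myog* (chr1:134289754-134290053, + strand) and *Actc1* (chr2:114052826-114053125, − strand), which do not within this window, to show that the most different genes are not all among the matches.
Des: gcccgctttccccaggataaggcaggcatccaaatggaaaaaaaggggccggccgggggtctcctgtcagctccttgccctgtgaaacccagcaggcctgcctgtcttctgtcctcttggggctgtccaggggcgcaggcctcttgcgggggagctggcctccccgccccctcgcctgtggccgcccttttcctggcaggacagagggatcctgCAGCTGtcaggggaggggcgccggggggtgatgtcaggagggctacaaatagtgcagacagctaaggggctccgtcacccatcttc
Tnni1: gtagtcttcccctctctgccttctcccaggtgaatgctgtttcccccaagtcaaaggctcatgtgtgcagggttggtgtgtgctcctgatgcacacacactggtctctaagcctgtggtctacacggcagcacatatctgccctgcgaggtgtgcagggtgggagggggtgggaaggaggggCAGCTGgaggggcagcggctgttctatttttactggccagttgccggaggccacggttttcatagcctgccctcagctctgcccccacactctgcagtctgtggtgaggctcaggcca
Mylpf: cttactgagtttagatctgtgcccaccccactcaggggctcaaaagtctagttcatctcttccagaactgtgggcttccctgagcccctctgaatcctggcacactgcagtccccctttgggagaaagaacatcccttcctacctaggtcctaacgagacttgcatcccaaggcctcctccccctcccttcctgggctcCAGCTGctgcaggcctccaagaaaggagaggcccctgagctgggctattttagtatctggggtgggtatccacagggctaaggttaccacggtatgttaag
Myog: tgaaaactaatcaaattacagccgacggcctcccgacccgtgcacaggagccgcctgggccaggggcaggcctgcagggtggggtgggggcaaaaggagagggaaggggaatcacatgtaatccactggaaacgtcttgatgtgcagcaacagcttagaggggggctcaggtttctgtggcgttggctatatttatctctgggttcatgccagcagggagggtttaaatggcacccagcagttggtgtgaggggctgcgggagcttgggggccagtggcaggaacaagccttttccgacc
Actc1: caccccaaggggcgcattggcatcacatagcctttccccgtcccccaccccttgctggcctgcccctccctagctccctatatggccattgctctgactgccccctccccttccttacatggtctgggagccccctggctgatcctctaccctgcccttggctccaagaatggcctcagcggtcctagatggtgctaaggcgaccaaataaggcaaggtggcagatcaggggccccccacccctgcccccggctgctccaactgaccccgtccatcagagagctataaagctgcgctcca

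When the somite cells were clustered on 1500 variable genes, 5 clusters were made, which describe the cells without a test. A cluster of 20 cells (4, 3, 4 and 9 by embryo) was led by *Actc1*, *Ttn* and *Tnnt1* and held 11 of the 22 *Myod1* cells. It was the only multi-cell cluster with cells of all 4 embryos. A cluster of 45 cells was led by *Fos*, *Hbb-y* and *Hbb-bh1*, with 43 of its cells from E10.5 (19 and 24), and 1 of 40 cells was led by *Pcp4*, *Pax1* and *Hoxc13* and came from E11.5 alone (18 and 22). A cluster of 15 cells was led by *Igf1* and *Fibin* (8, 3, 4 and 0), and 1 cell with 22267 UMIs stood alone. The muscle-led cells numbered 10 with 6 clusters and 12 with 3000 variable genes.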

How the data were processed

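Cells were dissected, dissociated with trypsin and picked by mouth pipette into a modified 3′ protocol with cell barcodes and UMIs. The labels also name MACS and FACS, whose gate is not given. The authors trimmed the reads, aligned them to mm10 with TopHat2 2.0.12, counted uniquely mapped reads per gene with HTSeq and removed duplicate UMIs. The HTSeq version, strand setting and annotation are not given in the sources used here. The deposited TPM values are CPM, UMI counts scaled to a total of 1000000 in each cell with no gene length. The whole UMIs were recovered from them (100% of values whole within 0.05 UMI), and the totals matched those of the cell list in 1152 of 1152 cells. Cells came from the study's major group list. Members, lists and named genes were chosen with earlier results of these data known, by a rule of the 15 most different called genes per direction plus list members (lists are of cell types and pathways). Cell names carry no barcodes, so shared barcodes could not be counted, and no doublet caller was run on picked cells.

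Embryo means of at least 3 cells of log2(TPM/10 + 1) were fitted for genes expressed in at least 3 cells with limma 3.58.1 in R 4.3.3 (trend, Benjamini-Hochberg adjustment over all genes tested, a call at adjusted p under 0.05 and a log2 difference of at least 1), with no embryo term. The 2 comparisons of cell classes were added after the data were seen, with the embryo as a term. The count test was edgeR 4.0.16 on summed UMIs. Positions refer to mm10 (GRCm38). The scripts were tested on simulated data.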

Additional observations from a re-analysis of the deposited data

Results flagged for a closer look

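The change from E10.5 to E11.5 differed between the somite and the mean of the other 4 organs by the limma test of the difference itself for 21 genes. For 6 genes the somite change was the lower one. The difference of the changes was −6.11 for *Hbb-y*, −5.16 for *Hba-x* and −4.77 for *Hbb-bh1*, the embryonic globins, and −3.30 for *Hoxc9*, −1.98 for *C1qtnf3* and −1.78 for *Hoxa7*, on the log2 scale.

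For the other 15 genes the somite change was the higher one. Among *Hox* genes and transcripts these were *Hoxa10* (2.51), *Hoxa11os* (2.37), *Hoxc13* (2.32), *Hoxd11* (2.12), *Hoxc10* (1.69), *Hoxd13* (1.55), *Hoxa9* (1.37), *Hoxd12* (1.27), *Hotair* (1.18) and *Hoxd10* (1.16). The others were *Pax1* (1.92), *Eya1* (1.35), *Foxc2* (1.31), *Uncx* (1.27) and *AI646519* (1.07). For genes with no UMI in the other organs, such as *Pax1* and *Hoxd13*, the value is the somite change itself.

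The 2 hematopoietic cells of the E10.5 somite library, which no comparison used, held muscle transcripts that none of 165 liver hematopoietic cells expressed. The lower of their levels was 1.86 for *Myog*, 2.39 for *Actc1* and 0.85 for *Myf5*. The source of these transcripts was not tested.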

How the results depend on the processing

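Leaving out 1 embryo at a time gave 20 to 88 calls between the days, 108 to 284 between somite and other organs, 11 to 79 for the difference of the changes, 3 to 39 between *Pax1* and *Pax3* cells and 7 to 60 for *Myod1* cells. With log2(TPM + 1) the first 3 gave 44 (47.7% higher against 64.0%), 755 (70.2% against 58.5%) and 37 (59.5% against 71.4%). edgeR gave 5, 702 (75.9% higher), 1, 78 and 149 (72.5% higher against 86.8%), in the same order, of which 1, 182, 0, 29 and 50 were among the genes called by limma, and 109 (47.7% higher) on the somite alone. The cause of the differences between the edgeR and limma counts was not tested. Between the days, cells expressing none of *Myf5*, *Myod1*, *Myog* and *Myf6* gave 212, with E11.5 resting on embryo 1, as embryo 2 had 0 such cells. A replicate block gave 25, 239 and 21 calls and moved none of these counts by 1.5 times. Same-numbered embryos of different organs deviated with correlations of −0.04 to 0.16, and the main comparisons held no term for the embryo number. Such correlations over all genes cannot show that the embryos were unpaired. With no replicate block the 2 comparisons of cell classes gave 1 and 10. Muscle-led clusters held 10 cells with 6 clusters and 12 with 3000 genes. Cells with identical values counted once, added after the data were seen, moved none of the 5 counts of calls by 1.5 times and no marker share out of its interval. With 1 UMI as expression, *Pax1* was in 35.5% and 56.7% (E10.5 embryos 1 and 2) and in 69.0% and 93.5% (E11.5 embryos 1 and 2). *Pax9* was then in 61.3% (E11.5 embryo 2), *Pax3* in 80.0% and *Myog* in 96.7% (E10.5 embryo 2), and *Myod1* in 36.7% and 45.2% (embryo 2 of each day). Signs reversed for *Hhip* against other organs (1.51) and *AI646519* in the difference of the changes (−0.88) with edgeR, and for *Myl7* without heart (0.12). The causes were not tested, except that the heart supplies the *Myl7* level. Among named genes, 305 of 379 settings kept the call between the days, 962 of 1116 against other organs, 200 of 248 for the changes, 157 of 290 for *Pax1* against *Pax3* cells and 197 of 306 for *Myod1* cells. With 2 embryos a day, 1 library a day and 3 cells in some classes, small differences were not detectable.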
